A study of Mus musculus with 6 samples.

Results

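Activity-regulated immediate early genes were examined in temporal lobe tissue of epileptic mice, in which seizures had been provoked with kainic acid (KA), an agonist of glutamate receptors. The set held 34 genes chosen by symbol, and all 34 were found among the 36079 genes of the expression table. By role they comprised 17 rapid transcription factors, 11 coregulators and signalling brakes, and 6 slower effectors. One group of 3 libraries came from KA-treated mice on a ketogenic diet, which is rich in fat and poor in carbohydrate, for 3 weeks, and the other group of 3 from KA-treated mice on chow for the same time. The KA treatment was thus shared by both groups, and the induction of these genes over a brain without seizures was not measured. The sources used here do not give strain, sex, age, the interval between the last seizure and tissue collection, or whether a library holds RNA of more than 1 mouse. The sample labels name the tissue only as brain, while the series design names the temporal lobe. Values are FPKM, fragment numbers scaled for gene length and library depth, so levels may be compared between genes per length.

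Immediate early genes are transcribed within minutes of synaptic activity from factors already present in the cell, without new protein synthesis. Calcium entry activates kinases that phosphorylate CREB and the partners of serum response factor (SRF), and these start transcription at promoters such as that of Fos. Their products include transcription factors that drive a later wave of genes, proteins that restrain the signal, and synaptic effectors such as Arc. In the hippocampus and cortex, seizures are among the strongest known inducers of this programme, and their transcripts decay quickly once activity subsides.

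The promoters of Fos, Arc, Npas4 and Nr4a1 were chosen by name to be shown. Arc had no promoter entry, and the windows of the 3 others hold the core letters of the element bound by CREB. They are from RefSeq on build GRCm38.p6 and cover 250 bases before to 50 bases after the transcription start, read on the strand of the gene. The Fos window lies at chr12:85473640-85473939 on the plus strand, that of Npas4 at chr19:4989922-4990221 on the minus strand and that of Nr4a1 at chr15:101266596-101266895 on the plus strand. Capitals mark the core of the cAMP response element (CRE), TGACG, on either strand.
Fos: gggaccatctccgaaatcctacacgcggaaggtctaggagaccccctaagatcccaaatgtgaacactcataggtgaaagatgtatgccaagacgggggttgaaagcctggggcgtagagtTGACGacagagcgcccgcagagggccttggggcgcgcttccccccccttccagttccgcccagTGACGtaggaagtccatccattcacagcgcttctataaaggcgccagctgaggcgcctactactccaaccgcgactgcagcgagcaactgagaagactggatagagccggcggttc
Npas4: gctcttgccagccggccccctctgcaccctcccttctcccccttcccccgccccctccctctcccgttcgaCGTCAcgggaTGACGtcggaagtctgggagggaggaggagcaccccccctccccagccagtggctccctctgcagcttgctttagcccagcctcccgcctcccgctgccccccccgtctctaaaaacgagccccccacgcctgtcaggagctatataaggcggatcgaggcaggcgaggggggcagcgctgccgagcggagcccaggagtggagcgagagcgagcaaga
Nr4a1: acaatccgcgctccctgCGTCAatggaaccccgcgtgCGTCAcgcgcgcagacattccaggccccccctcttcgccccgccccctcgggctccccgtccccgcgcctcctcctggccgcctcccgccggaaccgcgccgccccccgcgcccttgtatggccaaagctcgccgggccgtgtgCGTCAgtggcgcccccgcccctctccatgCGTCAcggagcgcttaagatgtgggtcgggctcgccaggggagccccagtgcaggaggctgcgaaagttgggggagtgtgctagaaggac
The core occurred 2 times in the Fos window, 2 times in that of Npas4 and 4 times in that of Nr4a1. In Fos the nearer copy began 66 bases before the start. Of the 34 members, 27 had a promoter entry, and 19 of these held the core, against 20.8% of all 32851 promoters of the table. The full palindrome TGACGTCA, which contains the core, was present in Maff, Btg2 and Plk2 and in 1.79% of all promoters. The EGR element GCGNGGGCG was present in 9 members and in 5.55% of all, the AP-1 element TGANTCA in Csrnp1 alone and in 7.81% of all, and the CArG box, the element bound by SRF, in Egr2 and Dusp5 and in 1.63% of all. All motifs were searched on both strands, and a match describes letters in this window only. A member was counted if any of its promoter entries held the motif, whereas the shares over all promoters count single entries. The comparison is therefore not like for like where a member has several entries.

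The 6 libraries differed in depth and in the brain regions they held. Read numbers recovered from the FPKM steps summed to between 44063309 and 55910355 in ketogenic libraries and between 39927217 and 55283358 in chow libraries. Per member and library the median was 1354 reads, and the lowest was 28 for Egr2 in chow replicate 1. Excitatory neuron markers were all 8 detected in every library, with a summed level of 497 to 855 FPKM on the ketogenic diet and 298 to 677 FPKM on chow. Chow replicate 1 stood apart: its 8 thalamic and hypothalamic markers summed to 367 FPKM, against 18.2 to 58.4 FPKM on the ketogenic diet. They summed to 28.1 and 74.6 FPKM in chow replicates 2 and 3, so chow replicate 3 also lay above the ketogenic libraries. Chow replicate 1 also held the lowest level of excitatory neuron markers. Blood markers differed between diets without overlap (4 of 5 passed the minimum level), summing to 3.28 to 4.40 FPKM on the ketogenic diet and 12.6 to 35.3 FPKM on chow, and their part in the members' levels was not tested. Choroid plexus markers summed to 4.34, 4.19 and 1109 FPKM in ketogenic replicates 1, 2 and 3, against 864, 8.35 and 1941 FPKM in chow replicates 1, 2 and 3, with Folr1 and Otx2 at 0 in some libraries. They were thus high in 1 ketogenic and 2 chow libraries, and their part in the members' levels was not tested. Many of the differences and medians that rest on chow replicate 1 are also given without it.

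No member passed the limma test of ketogenic against chow at an adjusted p of 0.05, and none did so in the whole table (0 of 16009 genes, 0.0%). The count was also 0 with voom on recovered reads. The members' adjusted p, by Benjamini-Hochberg over all tested genes, was 0.752 or more. At an unadjusted p under 0.05 none of the 34 was found, where 861 genes (5.38%) of the table were. In no member did all 3 ketogenic libraries lie on one side of all 3 chow libraries, while 4.9% of tested genes did so with ketogenic higher and 7.49% with ketogenic lower. On the log2(FPKM + 0.5) scale 22 members had a positive and 12 a negative difference, with a median of 0.28, whereas 43.1% of all tested genes were positive with a median of -0.04. A difference of 0.5 or more was seen in 10 members and in 3.67% of all genes, and one of -0.5 or less in 3 members and in 5.12% of all genes. Without chow replicate 1 the median over the members was -0.13, with 10 positive and 24 negative. Over all tested genes 43.5% were positive without that library, with a median of -0.03. In bulk tissue, fewer cells of a type and less RNA per cell cannot be told apart.

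**Figure D1:**
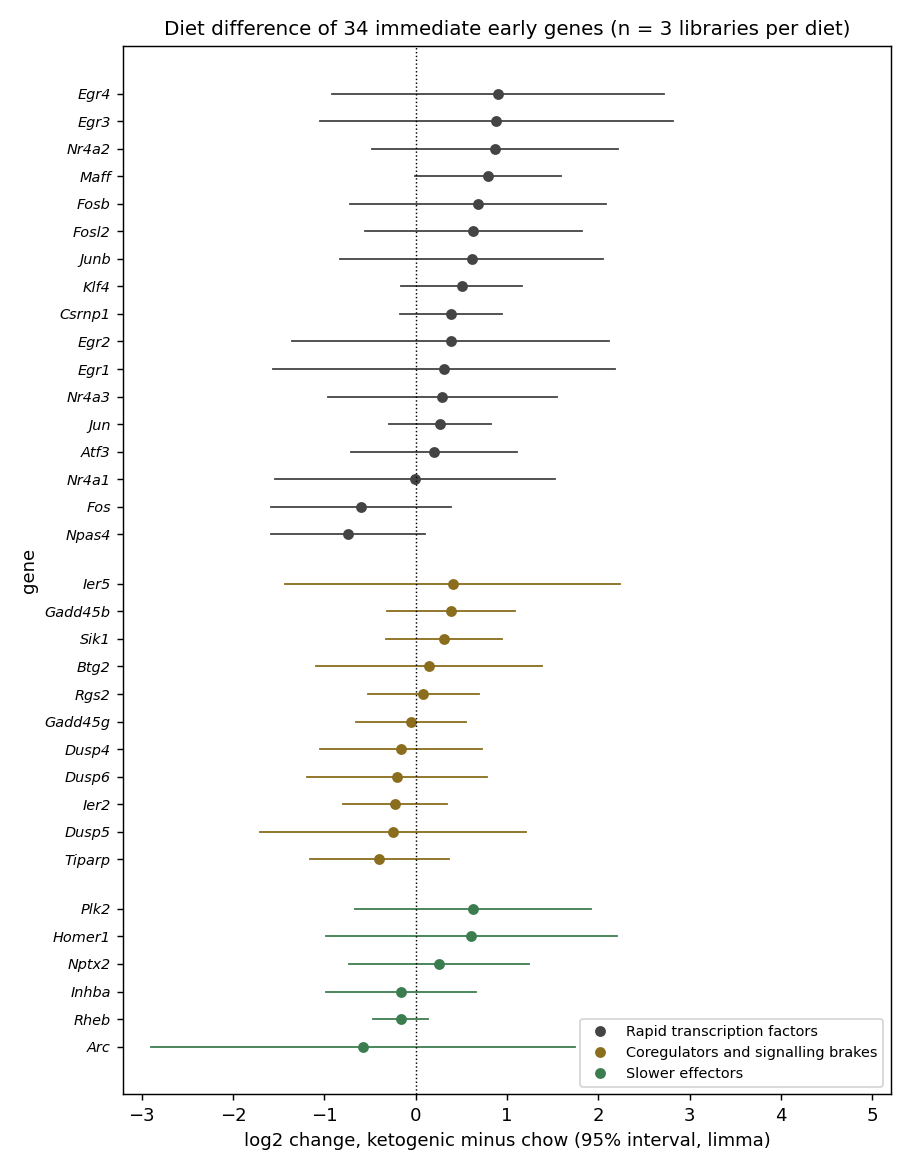
Difference in log2(FPKM + 0.5), ketogenic minus chow, for each of 34 immediate early genes (3 libraries per diet), with points for limma estimates and lines for 95% intervals, coloured by role. Every interval includes 0, from the narrow one of Rheb (-0.46 to 0.13) to the wide one of Arc (-2.89 to 1.75).

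The Fos and Jun proteins pair to form the AP-1 transcription factor. Fos (ENSMUSG00000021250), the classical marker of recently active neurons, measured 14.9, 5.51 and 9.09 FPKM in ketogenic replicates 1, 2 and 3, against 9.54, 13.6 and 21.3 FPKM in chow replicates 1, 2 and 3. Chow replicate 3 was highest and ketogenic replicate 2 lowest, and the groups overlapped. The log2 difference was -0.60 ± 0.41 (SE), with a 95% interval from -1.58 to 0.38 and an adjusted p of 0.752 by limma. With 1 library left out it ran from -0.94 (without ketogenic replicate 1) to -0.26 (without ketogenic replicate 2). Fosb, whose truncated product is long-lived and accumulates with repeated seizures, measured 7.40, 4.20 and 4.14 FPKM on the ketogenic diet, against 0.869, 4.08 and 6.09 FPKM on chow. Its log2 difference was 0.69 ± 0.58 and rested on the low chow replicate 1: it was 0.02 without that library. The table is by gene, so full-length and truncated Fosb transcripts are summed. Fosl2, which encodes the Fos relative FRA2, ranged from 6.43 to 11.1 FPKM on the ketogenic diet and from 2.15 to 9.48 FPKM on chow. Junb measured 27.0, 20.1 and 24.9 FPKM on the ketogenic diet, against 5.21, 27.2 and 24.9 FPKM on chow. Chow replicate 1 alone was far below the other 5 libraries, and the log2 difference of 0.61 ± 0.60 was -0.13 without it. Jun, which is also induced by injury, spanned 18.5 to 30.2 FPKM against 16.04 to 24.4 FPKM.

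The Egr genes encode zinc finger factors that are induced by the same signals and bind GC-rich promoters. Egr1, the most abundant member by mean FPKM, measured 112, 45.9 and 35.3 FPKM on the ketogenic diet, against 14.5, 59.1 and 108 FPKM on chow. Its highest values came from a library of each diet. The difference of 0.31 ± 0.78 was smaller than its error, and it was -0.50 without chow replicate 1. Egr2, which is also the regulator of myelination in Schwann cells, measured 3.40, 1.44 and 2.15 FPKM on the ketogenic diet, against 0.148, 2.59 and 3.99 FPKM on chow. Within chow this was a 27.0-fold range, the widest among the members. The log2 difference of 0.38 ± 0.72 was -0.46 without chow replicate 1. Egr4 measured 16.4, 10.6 and 10.4 FPKM on the ketogenic diet, against 1.40, 10.8 and 14.2 FPKM on chow. Its log2 difference of 0.90 ± 0.75 was the most positive of the 34 and was -0.024 without chow replicate 1. Egr3, needed for muscle spindles and active in cortex, spanned 29.7 to 85.6 FPKM against 6.99 to 58.6 FPKM, with a difference of 0.88 ± 0.80 that was -0.015 without that library.

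Npas4, a factor induced by calcium entry and nearly restricted to neurons, had the most negative difference. It measured 3.15, 1.31 and 1.78 FPKM on the ketogenic diet, against 2.51, 3.31 and 5.64 FPKM on chow. Ketogenic replicates 2 and 3 lay below all chow libraries, and ketogenic replicate 1 lay above chow replicate 1. The log2 difference was -0.74 ± 0.35, with a 95% interval from -1.58 to 0.10, an unadjusted p of 0.0744 and an adjusted p of 0.752 by limma. Without chow replicate 1 it was -0.97, with an unadjusted p of 0.0371 and an adjusted p of 0.998 in the same model. It was -1.03 without ketogenic replicate 1 and -0.46 without chow replicate 3.

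The Nr4a genes encode orphan nuclear receptors that act without a known ligand. Nr4a1 measured 30.2, 11.3 and 13.9 FPKM on the ketogenic diet, against 6.48, 22.0 and 33.2 FPKM on chow, and its difference was -0.01 ± 0.64. It was -0.67 without chow replicate 1 and 0.47 without chow replicate 3. Here too ketogenic replicate 1 and chow replicate 3 were the high libraries. Nr4a2, which specifies dopamine neurons and is also induced by activity, measured 29.3, 23.9 and 11.4 FPKM on the ketogenic diet, against 4.69, 19.3 and 13.3 FPKM on chow. Its difference was 0.87 ± 0.56, and 0.31 without chow replicate 1. Nr4a3 spanned 5.19 to 17.1 FPKM against 5.44 to 15.3 FPKM.

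A further group of transcription factors responds to stress, cytokines and growth factors as well as to activity. Maff, a small Maf protein that pairs with other leucine zipper factors, measured 1.77, 3.57 and 2.72 FPKM on the ketogenic diet, against 0.914, 2.27 and 0.958 FPKM on chow. It had the smallest unadjusted p of the members, 0.0518 (log2 difference 0.79 ± 0.33, adjusted p 0.752, limma). Unlike most genes described so far, it was not high in ketogenic replicate 1 and chow replicate 3. Klf4, a Krüppel-like factor known from stem cells and endothelium, measured 5.04, 5.96 and 7.41 FPKM on the ketogenic diet, against 2.76, 6.12 and 4.08 FPKM on chow. Csrnp1, a nuclear protein rich in cysteine and serine, measured 3.45, 3.08 and 3.87 FPKM on the ketogenic diet, against 1.63, 3.03 and 3.17 FPKM on chow. In both genes chow replicate 1 was lowest and the groups overlapped, with log2 differences of 0.51 ± 0.28 for Klf4 and 0.39 ± 0.23 for Csrnp1 that were 0.25 and 0.14 without that library. Atf3, the stress-induced factor of injured neurons, measured 0.610, 1.45 and 1.35 FPKM on the ketogenic diet, against 0.533, 1.80 and 0.600 FPKM on chow. It had the lowest mean FPKM of the members.

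**Figure D2:**
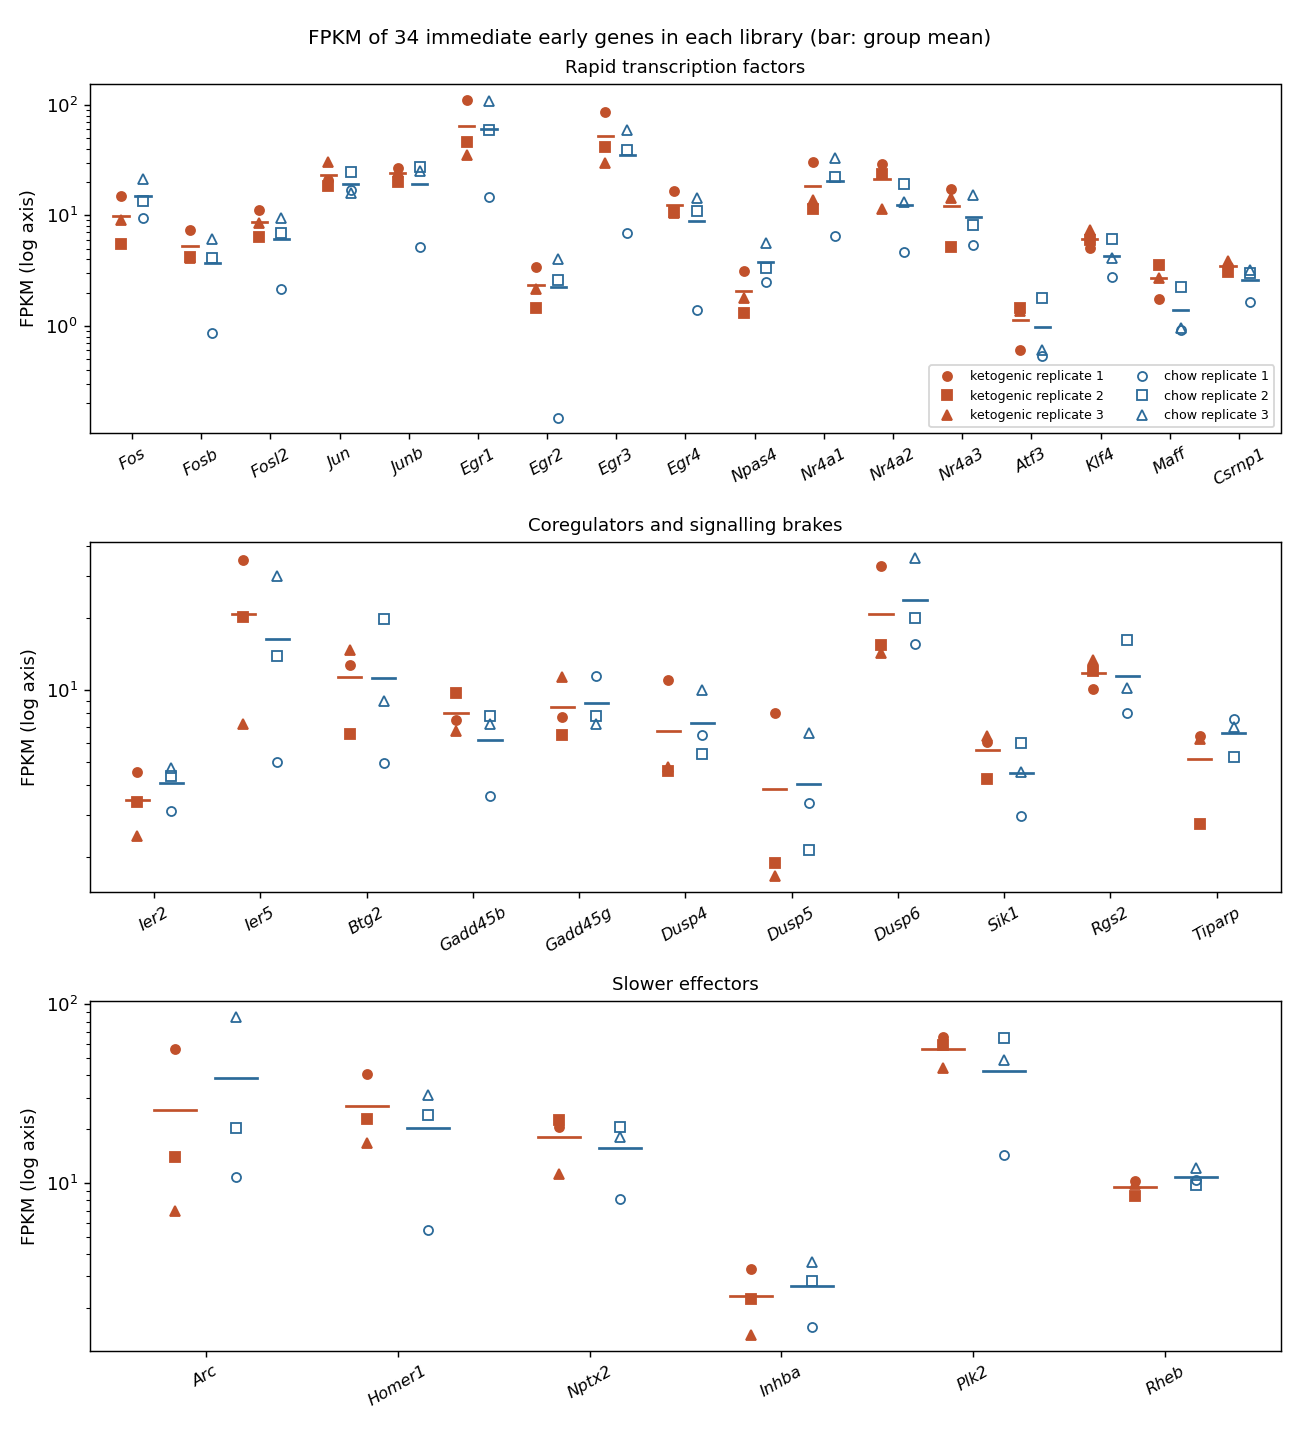
FPKM on a log axis for each of 34 immediate early genes, with the 3 ketogenic libraries (filled) left of the 3 chow libraries (open) and a bar at each group's mean. The values of the diets overlap in every gene, and chow replicate 1 (open circle) is the lowest library for 21 of the 34.

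The coregulators and signalling brakes had 5 positive and 6 negative differences, from -0.40 for Tiparp to 0.41 for Ier5, with a median of -0.05. Leaving out chow replicate 1 gave 3 positive and 8 negative, with a median of -0.23. Dusp4, Dusp5 and Dusp6 encode phosphatases that inactivate MAP kinases and so end the signal that induced them. Dusp5 measured 8.005, 1.89 and 1.67 FPKM on the ketogenic diet, against 3.37, 2.15 and 6.61 FPKM on chow, a difference of -0.24 ± 0.61. Again ketogenic replicate 1 and chow replicate 3 were the highest pair. The same pair led Dusp6 (32.9 and 35.5 FPKM, with the other 4 libraries at 14.3 to 19.99 FPKM) and Dusp4 (10.96 and 9.95 FPKM, with the others at 4.57 to 6.46 FPKM). Ier5, a nuclear protein linked to the heat shock factor HSF1, followed this order more widely, from 7.22 to 35.0 FPKM on the ketogenic diet and from 5.02 to 30.03 FPKM on chow. Ier2, a small nuclear early response protein, varied less, from 2.45 to 4.54 FPKM against 3.13 to 4.73 FPKM.

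Gadd45b and Gadd45g encode stress sensors that have been linked to the removal of DNA methylation in neurons. Gadd45b measured 7.49, 9.73 and 6.70 FPKM on the ketogenic diet, against 3.60, 7.81 and 7.20 FPKM on chow (log2 difference 0.39 ± 0.29). Its difference was 0.07 without chow replicate 1, the lowest library. Gadd45g spanned 6.47 to 11.4 FPKM against 7.18 to 11.4 FPKM, and was among the 2 members highest in chow replicate 1. The other was Tiparp, a mono-ADP-ribosyltransferase, at 2.76 to 6.43 FPKM against 5.26 to 7.56 FPKM. Btg2, an antiproliferative coregulator, spanned 6.53 to 14.7 FPKM against 4.96 to 19.7 FPKM. Sik1, a kinase that restrains the CREB coactivators, spanned 4.23 to 6.45 FPKM against 2.98 to 6.03 FPKM, and Rgs2, which shortens signalling through G proteins, 10.1 to 13.3 FPKM against 8.04 to 16.2 FPKM.

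Among the slower effectors, Arc varied most. Arc (ENSMUSG00000022602) encodes a synaptic protein that promotes the removal of AMPA receptors, and its transcript is carried into dendrites. It measured 55.9, 14.0 and 6.96 FPKM on the ketogenic diet, against 10.8, 20.3 and 85.0 FPKM on chow. A single library of each diet was high, ketogenic replicate 1 and chow replicate 3, and the range was 8.04-fold within the ketogenic diet and 7.87-fold within chow. The log2 difference was -0.57 ± 0.96, with a 95% interval from -2.89 to 1.75, and it was 0.25 without chow replicate 3. It was -1.39 without ketogenic replicate 1, and -1.43 with the level of excitatory neuron markers as a covariate, an alternative chosen after seeing the data (unadjusted p 0.0326, adjusted p 0.896, limma). That result was not particular to Arc. With the same covariate the unadjusted p by limma was smaller for Ier2 (-0.43, p 0.0113), Inhba (-0.48, p 0.0138) and Npas4 (-0.96, p 0.0243). No other member was under 0.05, and the share over all tested genes is not given for this covariate.

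Homer1 encodes a scaffold of the postsynaptic density, and its short form is the activity-induced one. It measured 40.9, 22.8 and 16.7 FPKM on the ketogenic diet, against 5.49, 24.1 and 31.1 FPKM on chow. Short and long forms are summed in a table by gene. Nptx2, a secreted pentraxin that clusters AMPA receptors on interneurons, measured 20.7, 22.6 and 11.3 FPKM on the ketogenic diet, against 8.09, 20.6 and 18.2 FPKM on chow. Plk2, a kinase that weakens synapses after prolonged activity, measured 65.6, 58.9 and 44.1 FPKM on the ketogenic diet, against 14.4, 64.5 and 48.5 FPKM on chow. In these 3 genes chow replicate 1 was the lowest library, and their differences of 0.61 ± 0.66, 0.25 ± 0.41 and 0.63 ± 0.54 were -0.13, -0.15 and -0.013 without it. Inhba, a subunit of the growth factor activin A, measured 3.30, 2.25 and 1.41 FPKM on the ketogenic diet, against 1.55, 2.81 and 3.63 FPKM on chow. Rheb, the GTPase that activates the growth kinase mTORC1, was nearly flat at 10.2, 8.49 and 9.83 FPKM on the ketogenic diet, against 10.4, 9.71 and 12.1 FPKM on chow.

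The rapid transcription factors and the slower effectors were then set side by side. Of the rapid factors 14 had a positive and 3 a negative difference, with a median of 0.39. Without chow replicate 1 that direction was lost, with 7 positive, 10 negative and a median of -0.01. The effectors were divided, with 3 positive, 3 negative and a median of 0.05, which is -0.34 relative to the rapid factors. All 6 effectors were negative without that library, with a median of -0.17. Taken as the median deviation from each gene's mean, the rapid factors stood at 0.69, 0.05 and 0.23 in ketogenic replicates 1, 2 and 3, against -1.32, 0.25 and 0.59 in chow replicates 1, 2 and 3 (log2). The effectors stood at 0.48, 0.06 and -0.37 in the ketogenic libraries, against -0.96, 0.23 and 0.39 in the chow libraries. Both classes were highest in ketogenic replicate 1 and chow replicate 3 and lowest in chow replicate 1. The level of the effectors minus that of the rapid factors was -0.21, 0.01 and -0.60 on the ketogenic diet, against 0.36, -0.03 and -0.20 on chow. These values overlapped between diets, and the low ketogenic value came from replicate 3, where all 6 effectors were below their means, from -0.01 for Plk2 to -1.58 for Arc. Without ketogenic replicate 3 the gap between the class medians was -0.08, without chow replicate 1 it was -0.15, and without ketogenic replicate 2 it was -0.61.

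**Figure D3:**
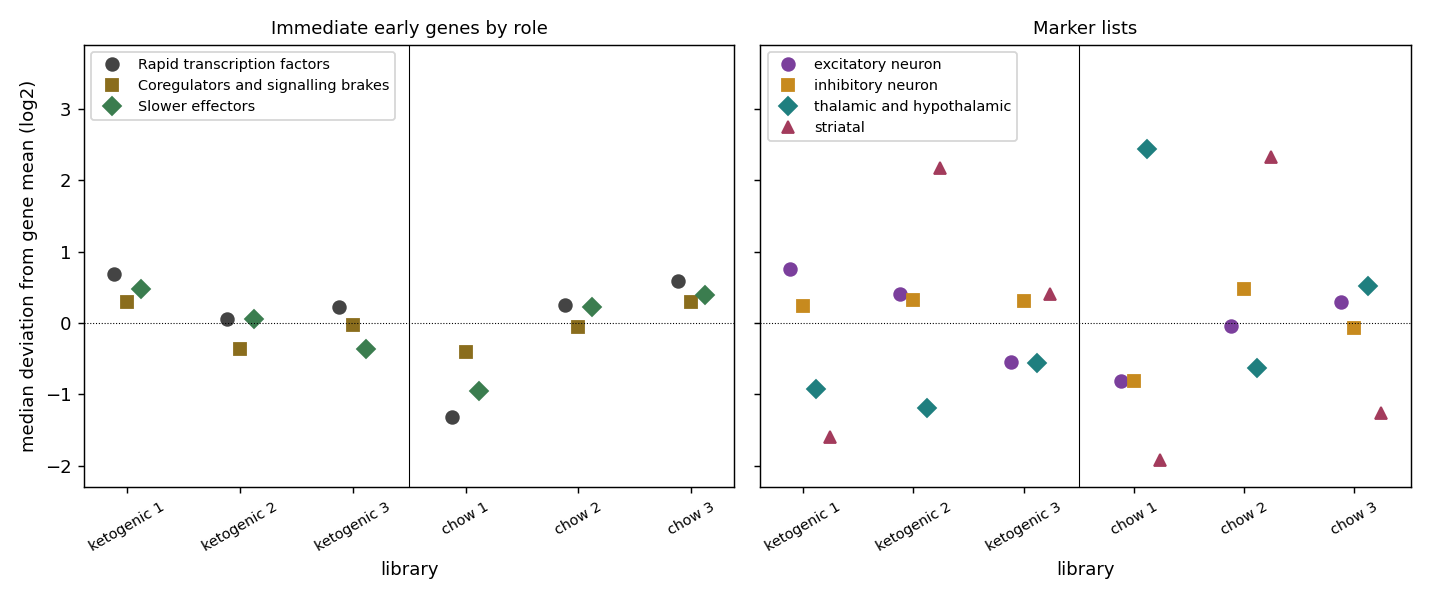
Median deviation from each gene's mean over 6 libraries (log2) for the 3 role classes (left) and 4 marker lists (right), with ketogenic libraries left of chow libraries. In chow replicate 1 the rapid factors stand at -1.32 and thalamic and hypothalamic markers at 2.43; in ketogenic replicate 1 and chow replicate 3 the rapid factors stand at 0.69 and 0.59.

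Chow replicate 1 was the lowest library for 21 of the 34 members, against 21.9% of all tested genes. Of the rapid factors it was lowest for 13 of 17, among them Fosb, Junb, Egr1 to Egr4, Nr4a1 and Nr4a2. The exceptions were Fos, Jun, Npas4 and Nr4a3. In it Fos, at 9.54 FPKM, and Npas4, at 2.51 FPKM, exceeded 2 ketogenic libraries each. Excitatory neuron markers stood at 0.76, 0.41 and -0.54 in the ketogenic libraries, against -0.81, -0.04 and 0.29 in the chow libraries, and all 8 of 8 were detected. Thalamic and hypothalamic markers, also 8 of 8 detected, stood at -0.93, -1.20 and -0.56 in the ketogenic libraries, against 2.43, -0.63 and 0.52 in the chow libraries. Oligodendrocyte markers were highest in chow replicate 1 as well, summing to 2002 FPKM there, with 577 to 1294 FPKM on the ketogenic diet and 800 and 934 FPKM in the other chow libraries. Inhibitory neuron markers were lowest in it, at -0.81. The part of these markers in the members' levels was not tested.

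A second order ran through the set, with ketogenic replicate 1 and chow replicate 3 as the 2 highest libraries. It was noticed after the values had been seen. It held for 17 of the 34 members, against 9.16% of all tested genes, and took in Fos, Egr1 to Egr4, Nr4a1, Arc, Homer1, Inhba and all 3 Dusp genes. Striatal markers were low in this pair of libraries, at -1.60 in ketogenic replicate 1 and -1.27 in chow replicate 3, and stood at 2.17 in ketogenic replicate 2 and 2.32 in chow replicate 2. Chow replicate 1 was low in them too, at -1.92, without high levels of the members. Hippocampal markers stood at 1.06, -0.93 and -0.27 in the ketogenic libraries, against 1.29, -0.85 and 0.30 in the chow libraries. Whether these regional differences bear on the order was not tested. Maff, Klf4, Atf3, Rgs2, Sik1 and Btg2 were among the 17 members that did not follow it.

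**Figure D4:**
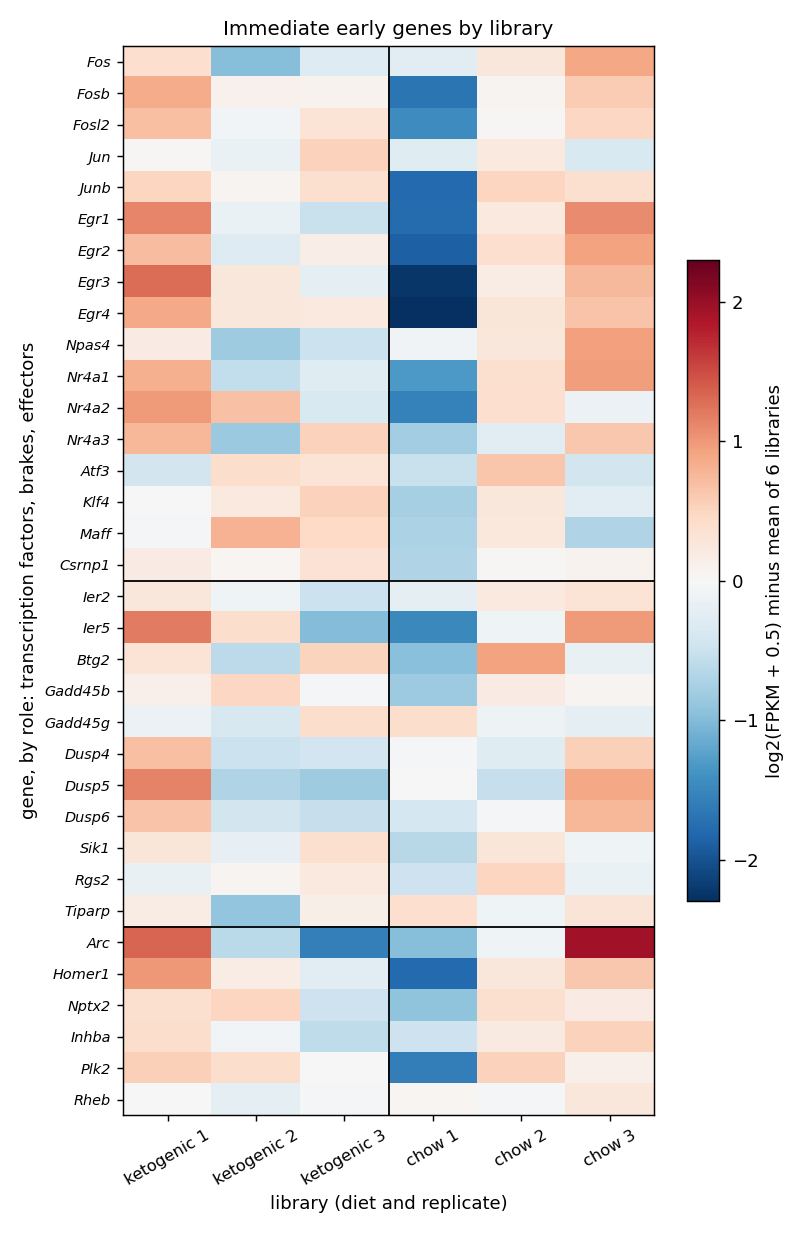
Deviation of log2(FPKM + 0.5) from the mean of 6 libraries for 34 immediate early genes (rows, by role) in ketogenic libraries (left) and chow libraries (right). Red is above and blue below the mean; Egr4 in chow replicate 1 (-2.296) is the lowest and Arc in chow replicate 3 (1.94) the highest of the values shown.

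The spread between libraries of the same diet was wide for these genes. Their median SD within a diet was 0.62 on the log2 scale, against 0.20 for all tested genes, and 33 of 34 lay above that of all genes. Compared with the 500 tested genes nearest in level, 21 members exceeded at least 90% of them. The widest were Arc (SD 1.49), Egr3 (1.24) and Egr1 (1.20), while Rheb (0.14) lay below the middle. Highest over lowest FPKM exceeded 2-fold within the ketogenic diet in 20 members and within chow in 27, where 15.02% and 19.6% of tested genes did so. In 30 members the range among ketogenic libraries, and in all 34 the range among chow libraries, was larger than the difference between diets. The same share was not computed over all tested genes, so these counts are not read as a property of the members. The range is a ratio of FPKM values, whereas the difference is on the log2 scale of the limma test, which understates changes of low genes. The comparison is therefore not like for like in low genes. The median half-width of the members' 95% intervals was 0.98 on the log2 scale, so differences under about that size were not detectable with 3 libraries per diet for many of the genes.

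**Figure D5:**
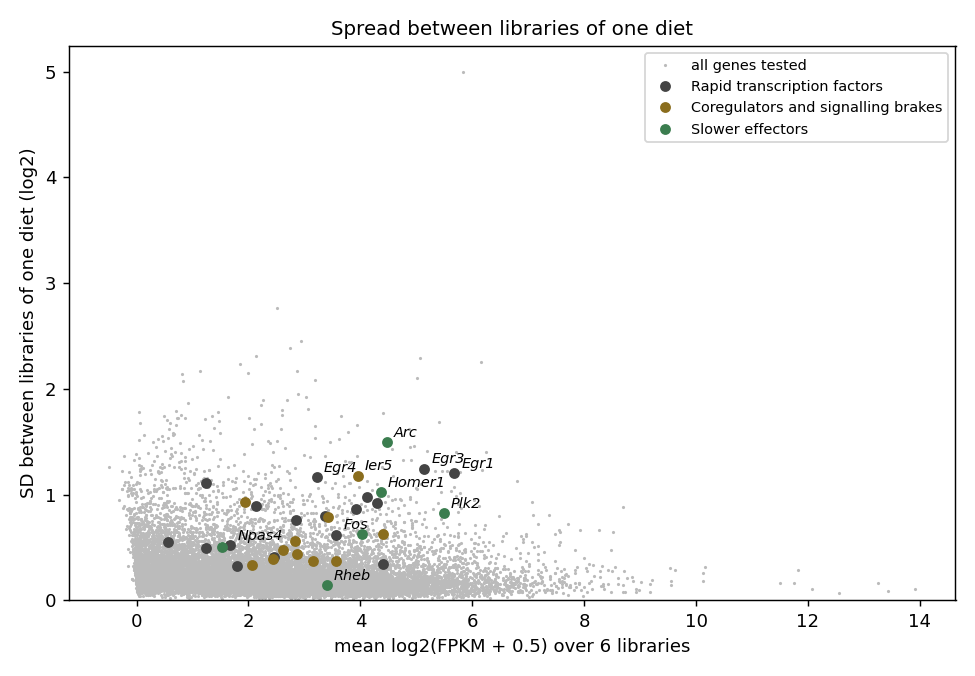
SD between libraries of the same diet (log2 scale, pooled over the ketogenic and chow groups) against the mean level over 6 libraries, for all 16009 tested genes (grey) and the 34 immediate early genes coloured by role. Most members lie above the bulk of genes of like level, with Arc at 1.49 and Rheb at 0.14.

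Ratios between members within a library do not depend on depth or on scaling. Fos relative to Fosb was 2.01, 1.31 and 2.19 in the ketogenic libraries, against 10.99, 3.34 and 3.49 in the chow libraries. The ketogenic ratios were all below the chow ratios. Npas4 relative to Egr4 was 0.192, 0.123 and 0.171 in the ketogenic libraries, against 1.80, 0.305 and 0.396 in the chow libraries, again without overlap. The most extreme chow ratio of each came from chow replicate 1, and the ketogenic ratios were below those of the other 2 chow libraries as well. Npas4 was lower in all ketogenic than in all chow libraries relative to 20 of the 33 other members, and relative to 13.6% of all tested genes. Without chow replicate 1 the count was 23 of 33, and 55.5% of all tested genes. Npas4 itself then no longer overlapped, with 3.15 FPKM as its highest ketogenic and 3.31 FPKM as its lowest chow value. Fewer libraries also separate more easily, so the counts with and without chow replicate 1 are not compared. For Fos the count was 8 of 33, against 5.02% of all tested genes, and without chow replicate 1 it was 10 of 33, against 27.0%. Arc relative to Plk2, by contrast, was 0.853, 0.237 and 0.158 in the ketogenic libraries, against 0.750, 0.314 and 1.75 in the chow libraries, and no ratio of Arc to another member separated the diets. Over all 561 pairs of members, 52 ratios (9.27%) did not overlap between the diets, and Npas4 was in 20 of these and Fos in 9. The same share was not computed over pairs of all tested genes, so it is not read as an excess among the members. The ratios described were chosen after the values had been seen, and they were not tested.

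Other genes of the pathway were read from 3 lists, and none of their members passed the limma test (adjusted p of 0.752 or more). Among 22 further immediate early genes tested, 15 were positive and 7 negative, with a median log2 difference of 0.10. The counts were 9 positive and 13 negative, with a median of -0.03, without chow replicate 1. Jund, an AP-1 member that is expressed at rest, averaged 11.8 ± 0.259 FPKM in ketogenic libraries and 9.10 ± 0.572 FPKM in chow libraries (SD, n = 3 each). It was the single gene of that list whose diets did not overlap (4.9% of tested genes in this direction) and had a log2 difference of 0.36 ± 0.09 (SE). Arl4d, Myc and the clock gene Per1 had differences of 0.34, 0.24 and 0.26, and the phosphatase Dusp1 one of -0.11. Without chow replicate 1 these were 0.21, 0.15, 0.09 and -0.41.

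The 22 late response genes tested had 12 positive and 10 negative differences, with a median of 0.03, and 10 positive and 12 negative, with a median of -0.02, without chow replicate 1. Bdnf, the growth factor of active synapses, averaged 5.82 ± 2.17 FPKM in ketogenic libraries and 5.98 ± 2.12 FPKM in chow libraries (SD, n = 3 each). The secretory granule genes Vgf and Scg2 had differences of 0.20 and -0.15. The cell cycle inhibitor Cdkn1a, at 8.38 ± 2.13 FPKM in ketogenic libraries and 5.52 ± 1.64 FPKM in chow libraries, was the 1 gene of the 22 without overlap, where 4.9% of all tested genes had none in this direction. Its log2 difference was 0.58, and 0.32 without chow replicate 1, its lowest library. Nptx1, a relative of Nptx2, Gpr22 and Ptprn had differences of 0.63, 0.54 and 0.37. Without chow replicate 1 these were 0.42, 0.44 and 0.18.

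Upstream kinases and transcription factors were positive in 22 of 30, with a median of 0.24, where 43.1% of all tested genes were positive. Without chow replicate 1 the count was 21 of 30, with a median of 0.08, where 43.5% of all tested genes were positive. In 3 of the 30 the diets did not overlap, all with ketogenic higher (4.9% of all tested genes). These were Srf and, named after their values were seen, Crebbp (log2 difference 0.19) and Crtc2 (0.14). Srf averaged 13.5 ± 1.28 FPKM in ketogenic libraries and 9.79 ± 3.01 FPKM in chow libraries (SD, n = 3 each), and its coactivator Mrtfa 12.7 ± 1.89 FPKM in ketogenic and 8.74 ± 2.72 FPKM in chow libraries. The CREB coactivator Crtc1 had a difference of 0.45 and Mef2d one of 0.42, while Creb1 itself averaged 5.54 ± 1.07 FPKM in ketogenic and 6.03 ± 0.387 FPKM in chow libraries. Srf, Mrtfa, Crtc1 and Mef2d were all lowest in chow replicate 1. Their log2 differences were 0.48, 0.55, 0.45 and 0.42 with that library, and 0.21, 0.36, 0.27 and 0.21 without it.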

How the data were processed

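Per the labels' protocols, poly(A) RNA was captured from total RNA and made into paired-end libraries with random primers, for an Illumina or MGISEQ sequencer. HISAT2, featureCounts, Subread and build GRCm39 are named in the submitters' processing notes. The sources used here give no versions, annotation or strand setting, so reads of overlapping genes could not be told apart. The authors deposited FPKM per gene and library. The labels number the libraries within a diet and do not tie each to a separate mouse, so p-values measure only the spread between these samples, which may be technical. Symbols came from GENCODE M21 (GRCm38) by gene identifier: 35175 of 36079 identifiers matched. For that reason no gene positions are given, only those of the promoter windows on build GRCm38.p6.

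The limma test (version 3.58.1, R 4.3.3) took the 16009 genes, all 34 members among them, whose mean reached 0.5 FPKM, on log2(FPKM + 0.5), eBayes with a trend, diet as the only term, two-sided, with Benjamini-Hochberg adjustment over all tested genes. Differences are ketogenic minus chow on that scale, which understates changes of low genes. Whole reads were recovered from FPKM steps (tolerance 0.001, 100% of genes above 0), up to a factor per gene, and served for depth and an alternative test. Every pair of libraries differed by more than counting noise (chi-square per gene of 46.5 or more). All 34 members are named, with values per library for 15 fixed genes and the 6 others with the smallest p; from each pathway list the 4 with the smallest p and 7 fixed genes are named. Members, roles and lists were chosen with earlier results of these data known.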

Additional observations from a re-analysis of the deposited data

How the results depend on the processing

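No member and no other gene was called by limma under any of the 18 alternatives (a pseudocount of 0.1 or 1, a minimum of 2 FPKM or none, TPM scaling, quantile normalization, a replicate block, robust eBayes, voom on recovered reads, each library left out, and, added after seeing the data, centring on the median and covariates for excitatory neuron or thalamic markers). The lowest adjusted p of a member was 0.430 and the number of genes at an unadjusted p under 0.05 ran from 523 to 1845. With 1 library left out, the median over members ran from -0.13 (without chow replicate 1) to 0.50, that of rapid factors from -0.01 to 0.67, of brakes from -0.23 to 0.10 and of effectors from -0.17 to 0.33. With the thalamic score the medians of members and of effectors were -0.43 and -0.59. Same-numbered libraries did not all deviate together (correlations of -0.04, 0.48 and -0.21 for numbers 1, 2 and 3), since ketogenic replicate 1 went best with chow replicate 3 (0.45). A replicate block gave 0 genes called. Each number holds a library of each diet, so the block cannot change the differences, and the median over members stayed at 0.28 by construction.

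Of 611 member values under alternatives, 63 had the opposite sign, in 25 members. Of the 63, 18 came with the thalamic score and 14 without chow replicate 1. A changed minimum FPKM, robust eBayes and the replicate block leave each member's difference unchanged by construction. Their values count among the 611 but could not change sign. With 1 library left out the log2 difference ran from -0.50 to 0.93 for Egr1, -0.46 to 0.94 for Egr2, -0.015 to 1.48 for Egr3, -0.024 to 1.45 for Egr4, -0.13 to 1.01 for Junb, -0.67 to 0.47 for Nr4a1, -0.034 to 0.80 for Nr4a3, -0.0044 to 0.57 for Atf3, -0.23 to 1.01 for Ier5, -0.27 to 0.14 for Gadd45g, -0.55 to 0.070 for Dusp4, -0.88 to 0.14 for Dusp5, -0.57 to 0.13 for Dusp6, -0.30 to 0.64 for Btg2, -0.13 to 0.35 for Rgs2, -1.39 to 0.25 for Arc, -0.45 to 0.088 for Inhba, -0.13 to 1.07 for Homer1, -0.15 to 0.56 for Nptx2 and -0.013 to 1.05 for Plk2. In the other 14 members the sign held with 1 library left out, and the difference ran from -0.94 to -0.26 for Fos, -1.03 to -0.46 for Npas4, 0.02 to 1.15 for Fosb, 0.07 to 1.02 for Fosl2, 0.07 to 0.45 for Jun, 0.31 to 1.28 for Nr4a2, 0.25 to 0.76 for Klf4, 0.60 to 1.11 for Maff, 0.14 to 0.53 for Csrnp1, -0.41 to -0.03 for Ier2, 0.07 to 0.58 for Gadd45b, 0.07 to 0.52 for Sik1, -0.59 to -0.04 for Tiparp and -0.23 to -0.08 for Rheb. Nr4a1 was 0.012 after rescaling to TPM, 0.010 with voom and 0.046 after centring, and Gadd45g 0.0012 after centring. With the excitatory neuron score Egr1, Egr2, Ier5, Gadd45g and Nptx2 were -0.36, -0.10, -0.33, 0.16 and -0.10. With the thalamic score Fosb was -0.34, Fosl2 -0.19, Junb -0.61, Egr1 -0.92, Egr2 -0.87, Egr3 -0.56, Egr4 -0.58, Nr4a2 -0.28, Atf3 -0.35, Ier5 -0.62, Btg2 -0.70, Gadd45b -0.22, Gadd45g 0.33, Sik1 -0.11, Rgs2 -0.38, Homer1 -0.61, Nptx2 -0.56 and Plk2 -0.57. The cause was not tested.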
